A study of Mus musculus with 12 samples.

Results

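The genes described here are 10 members of the Bcl2 family, the proteins that decide whether a cell's mitochondria release their death signals. They were taken by gene name from a table of 55322 genes and were chosen for their role, with earlier results of these data known. By role, 6 are survival members (Bcl2, Bcl2l1, Mcl1, Bcl2a1a, Bcl2a1b and Bcl2a1d), 2 are effectors of death (Bax and Bak1) and 2 are BH3-only members (Bcl2l11 and Bmf). RNA was sequenced from conventional dendritic cells (cDCs) sorted from mouse spleen, in 4 groups of 3 libraries: L-cDC1 and M-cDC1 of the subset cDC1, and L-cDC2 and M-cDC2 of cDC2. The series' title concerns cDCs of lymphoid origin, and what L and M stand for is not spelled out in the sample titles. The genotype label of all 12 samples is Il7r-cre; Rosa26-lsl-tdTomato, a reporter that leaves a lasting red fluorescence in cells that have expressed the Cre, which the Il7r gene drives. The growth protocol and the design text instead speak of wild type C57BL/6J mice, naïve and aged 7 to 8 weeks. Whether any group was sorted by the reporter is not in the labels, and lymphocytes also have a history of Il7r expression. No treatment is named. Nothing links a replicate to its own animal, so the p-values rest on a spread between samples that may be technical.

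Survival members hold the effectors Bax and Bak1 in check at the mitochondrial outer membrane. BH3-only members are sensors of stress that bind the survival members, or activate the effectors directly, and so set off pore formation, cytochrome c release and caspase activation. The cDCs are short-lived cells that take up antigen and present it to T cells, and their lifespan is known to depend on this family: loss of Bcl2l11 (Bim) lengthens it, and Bcl2 or Bcl2l1 prolongs survival when overexpressed. The subset cDC1 is best known for presenting antigen taken up from dying cells to CD8 T cells, and cDC2 for priming CD4 T cells.

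Values are FPKM, which are read counts divided by gene length and by the library's total, so that levels of different genes can be set side by side. Totals ran from 15879864 to 24498235 reads per library, and between 10394 and 11570 genes reached 1 FPKM. Markers of the subsets followed their labels, as 6 of 6 cDC1 markers were higher in cDC1 and 6 of 6 cDC2 markers higher in cDC2, within L and within M. Xcr1, the cDC1 chemokine receptor, ranged from 181 to 249 FPKM in the cDC1 libraries and from 0.773 to 2.08 in the cDC2 libraries. Sirpa, which marks cDC2, ranged from 171 to 229 FPKM in cDC2 and from 0.199 to 1.50 in cDC1. RNA was taken from bulk sorts, so that fewer cells of a type and less RNA per cell cannot be told apart.

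The members lie apart in the genome except for the Bcl2a1 copies, which form a cluster on chromosome 9. In the coordinates of the deposited table, whose build is not given in the sources used here, Bcl2a1d lies at chr9:88605338-88613967 on the minus strand, Bcl2a1a at chr9:88838953-88844472 and Bcl2a1b at chr9:89081262-89089880, both on the plus strand. All 3 encode A1, a survival protein of blood cells whose transcription is known to be driven by NF-κB. In GENCODE M21 (mouse build GRCm38) their coding sequences are each 519 bases long. Bcl2a1a and Bcl2a1b differ at 11 of these bases, Bcl2a1a and Bcl2a1d at 7, and Bcl2a1b and Bcl2a1d at 6. The start of the coding sequence is shown, since it holds 6 of the 12 positions at which the copies are not all alike. Coding bases 1 to 90 are given 5′ to 3′, with capitals at those 6 positions. They lie at chr9:88957051-88957140 for Bcl2a1a, chr9:89199360-89199449 for Bcl2a1b and chr9:88731630-88731719 (minus strand) for Bcl2a1d in GRCm38.
Bcl2a1a: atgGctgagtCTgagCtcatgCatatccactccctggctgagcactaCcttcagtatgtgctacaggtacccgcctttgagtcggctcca
Bcl2a1b: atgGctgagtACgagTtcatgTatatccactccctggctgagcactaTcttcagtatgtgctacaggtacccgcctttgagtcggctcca
Bcl2a1d: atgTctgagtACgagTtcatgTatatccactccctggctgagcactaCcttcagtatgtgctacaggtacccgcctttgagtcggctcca

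This likeness limits what a short read can say about each copy. Of all windows of 50 bases along the annotated transcript, 32.3% were found in no other of the 3 copies for Bcl2a1a, 42.4% for Bcl2a1b and 20.5% for Bcl2a1d. With windows of 150 bases the shares were 71.8%, 85.8% and 69.7%. Read length and the treatment of reads that fit several copies are not given in the sources used here, so the split of reads between the copies is uncertain, and their summed FPKM is given beside them. In the deposited table Bcl2a1b also shares 401 of its 817 exon bases with Gm29094, a gene model on the same strand. Gm29094 reached at most 0.830 FPKM. How reads on these shared bases were counted is not given either. The level of Bcl2a1b, its rank and its share of the sum may therefore be understated.

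The copies are also alike in the part of their promoter shown here. RefSeq (GRCm38.p6) lists a promoter window of 300 bases for each of the 10 members, 15 windows in all, and stretches upstream of the start are shown for the 3 copies because they move differently between subsets. Capitals mark matches to TGANTCA, a looser pattern than the AP-1 site, with any base at N. They also mark GAGGAAGT, a form of the site bound by the Ets factor PU.1. Each TGANTCA match shown reads TGAATCA and is not taken as an AP-1 site. The TGANTCA match begins 120 bases before the annotated start in Bcl2a1a, 164 in Bcl2a1b and 114 in Bcl2a1d. The stretches lie at chr9:88956760-88956863 (plus strand), chr9:89199069-89199172 (plus strand) and chr9:88731907-88732004 (minus strand).
Bcl2a1a: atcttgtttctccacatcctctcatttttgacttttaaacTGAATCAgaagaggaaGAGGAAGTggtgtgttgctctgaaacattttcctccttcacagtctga
Bcl2a1b: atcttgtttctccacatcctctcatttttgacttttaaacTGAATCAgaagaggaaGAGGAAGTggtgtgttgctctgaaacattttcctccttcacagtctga
Bcl2a1d: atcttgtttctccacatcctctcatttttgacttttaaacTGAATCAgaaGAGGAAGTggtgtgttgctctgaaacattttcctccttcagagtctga

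Searched on both strands, GAGGAAGT was present in 4 of the 15 windows (Bak1 and the 3 Bcl2a1 copies) and in 3.2% of all 32851 promoter windows. TGANTCA was present in 3 of the 15, those of the Bcl2a1 copies, and in 7.81% of all windows, and the printed matches to the 2 motifs do not overlap. The 3 Bcl2a1 copies hold nearly the same stretch, so their matches are not separate cases, and the shares were not compared by a test. These are matches of letters and were not measured as binding.

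By the FPKM as deposited, Bcl2a1a and Bcl2a1d were the most abundant survival transcripts in every library, and Bcl2 itself was the scarcest. Bcl2a1b lay above Mcl1 except in L-cDC1 replicate 3, where Mcl1 was at 62.0 FPKM and Bcl2a1b at 36.5. Summed, the 3 copies reached 614 ± 34.2 FPKM in M-cDC2, 539 ± 38.8 in L-cDC2, 465 ± 20.0 in M-cDC1 and 418 ± 43.9 in L-cDC1 (SD, n = 3 each, as for all levels below). They made up 90.1%, 89.0%, 93.2% and 89.1% of the FPKM of the 6 survival members in these groups. Mcl1 held 5.45% to 13.2% of the survival FPKM across libraries. Bax held 86.8% to 90.7% of the FPKM of the 4 death members in every library. Survival members took 85.0% of the FPKM of all 10 members in L-cDC1, 85.9% in M-cDC1, 90.0% in L-cDC2 and 90.7% in M-cDC2. Without the Bcl2a1 copies these shares were 37.6%, 29.5%, 49.5% and 48.6%. The shares describe RNA and were not tested.

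**Figure D1:**
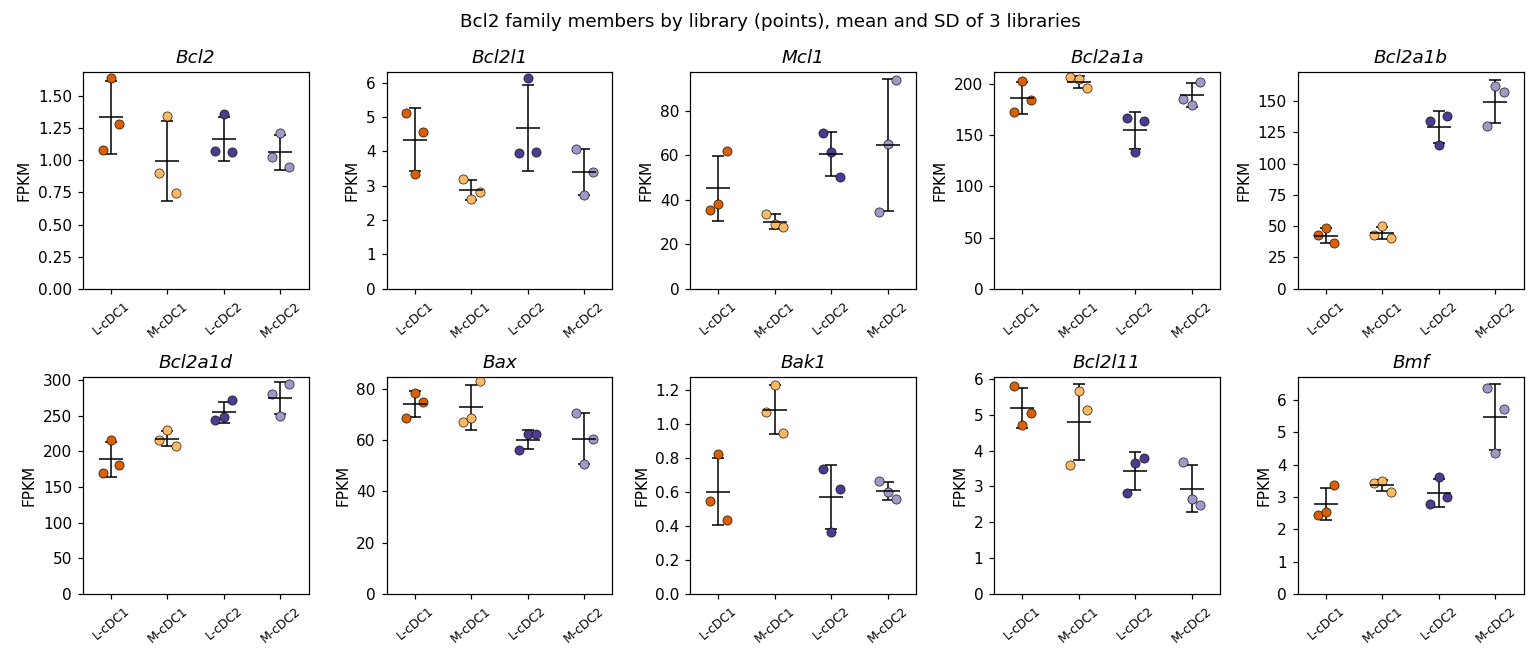
FPKM of the 10 members, 1 panel per gene with its own axis from 0, in the 4 groups; points are libraries, horizontal bars the mean and error bars the SD of 3 libraries. Bcl2a1b lies at 36.5 to 49.7 FPKM in the 6 cDC1 libraries and at 115 to 162 in the 6 cDC2 libraries, while Bcl2 stays between 0.746 and 1.64.

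The subsets cDC1 and cDC2 were compared within M and within L. Differences are on the log2(FPKM + 1) scale, cDC1 minus cDC2, and were tested with limma, a linear model fitted to all genes. A gene was called at a Benjamini-Hochberg adjusted p under 0.05. Bcl2a1b, Mcl1, Bcl2a1d and Bmf were lower in M-cDC1 than in M-cDC2, and Bcl2l11 was higher. In L, Bcl2a1b and Bcl2a1d were lower in L-cDC1 than in L-cDC2, and Bcl2a1a was higher. These are 5 of the 9 members tested in M, beside 38.1% of all 12434 genes tested, and 3 of 9 in L, beside 39.5%. Among the 9 tested, libraries did not overlap for 4 members in M, all lower in cDC1, beside 51.1% of genes. In L they did not overlap for 5 (3 higher and 2 lower), beside 48.6%. Bak1, which was not tested, was also apart in M, and higher in M-cDC1 (at least 0.946 FPKM) than in M-cDC2 (at most 0.661). The members' counts are thus near the background of a comparison in which a large share of genes differs. The median difference of the members was -0.17 in M and -0.08 in L, against -0.18 and -0.19 over all genes tested.

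The scale of the comparison matters for small differences. Of the genes called, 33.2% were higher in cDC1 in M and 32.7% in L. After median-of-ratios scaling the shares were 49.0% and 48.7%, and after quantile normalization 53.4% and 52.6%. The median over all genes moved from -0.18 to -0.03 and 0.04 in M, and from -0.19 to -0.04 and 0.02 in L. A difference smaller than this shift can therefore turn with the scaling, and such cases are named with the member.

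Bcl2a1b showed the largest difference of the 9 members tested. Its level was 43.2, 49.7 and 40.6 FPKM in M-cDC1 replicates 1 to 3 and 130, 162 and 157 in M-cDC2. In L-cDC1 it was 42.7, 48.1 and 36.5 FPKM, and in L-cDC2 134, 115 and 138. All 6 cDC1 libraries were below all 6 cDC2 libraries, in L and in M. The mean was 3.36-fold higher in M-cDC2 than in M-cDC1 and 3.04-fold higher in L-cDC2 than in L-cDC1. The log2 difference was -1.72 in M (SE 0.129, limma adjusted p = 1.33e-07) and -1.59 in L (SE 0.129, adjusted p = 3.29e-07). With the copies kept apart, it ran from -1.82 to -1.53 over the alternatives in M and from -1.68 to -1.39 in L.

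Bcl2a1d differed in the same direction and by less. It stood at 217, 230 and 208 FPKM in M-cDC1 and at 281, 250 and 294 in M-cDC2. In L-cDC1 it was 170, 216 and 181 FPKM, and in L-cDC2 244, 248 and 272. No cDC1 library reached the lowest cDC2 library of its own letter. The log2 difference was -0.33 in M (SE 0.103, limma adjusted p = 0.0215) and -0.44 in L (adjusted p = 0.00424). Median-of-ratios scaling ended both calls, leaving -0.13 in M (adjusted p = 0.375) and, for the L pair, -0.24 (adjusted p = 0.0984). In M the call was also lost without M-cDC1 replicate 1 or 3 or M-cDC2 replicate 1 or 3, at adjusted p of 0.0559 to 0.0874.

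Bcl2a1a did not follow the other copies. It was 173, 203 and 184 FPKM in L-cDC1 and 167, 134 and 164 in L-cDC2, so that the libraries did not overlap. In M-cDC1 it was 207, 205 and 196 FPKM, against 186, 180 and 202 in M-cDC2, where they did overlap. The difference was 0.27 in L (SE 0.102, limma adjusted p = 0.0487) and 0.10 in M (adjusted p = 0.486), and in M it turned to -0.07 after quantile normalization. The call in L was lost or turned in 10 of 14 alternatives. These count the summed copies, which are another quantity and were called at -0.37. The call was lost with limma-voom (adjusted p = 0.0766) and in the fits without L-cDC1 replicate 2 or 3 or L-cDC2 replicate 2 or 3 (adjusted p of 0.0548 to 0.219).

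In the sum over the copies it no longer mattered which copy a counted read was given to. Any reads left out because they fit several copies or Gm29094 would still be missing from the sum and its shares. The summed Bcl2a1 signal was lower in cDC1, with a difference of -0.40 in M (SE 0.0935, limma adjusted p = 0.00409) and -0.37 in L (adjusted p = 0.00653). The make-up of the sum differed more than its size. Bcl2a1b gave 9.10% to 11.1% of it in L-cDC1 and 9.15% to 10.3% in M-cDC1, against 23.1% to 24.6% in L-cDC2 and 21.8% to 27.3% in M-cDC2. Bcl2a1a gave 44.7% ± 1.22 in L-cDC1 and 43.6% ± 1.09 in M-cDC1, against 28.7% ± 1.86 in L-cDC2 and 30.8% ± 0.367 in M-cDC2. Bcl2a1d gave 44.8% to 47.4% on average in each group. For Bcl2a1a and Bcl2a1b no cDC1 library overlapped a cDC2 library in these shares, while for Bcl2a1d they overlapped.

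**Figure D2:**
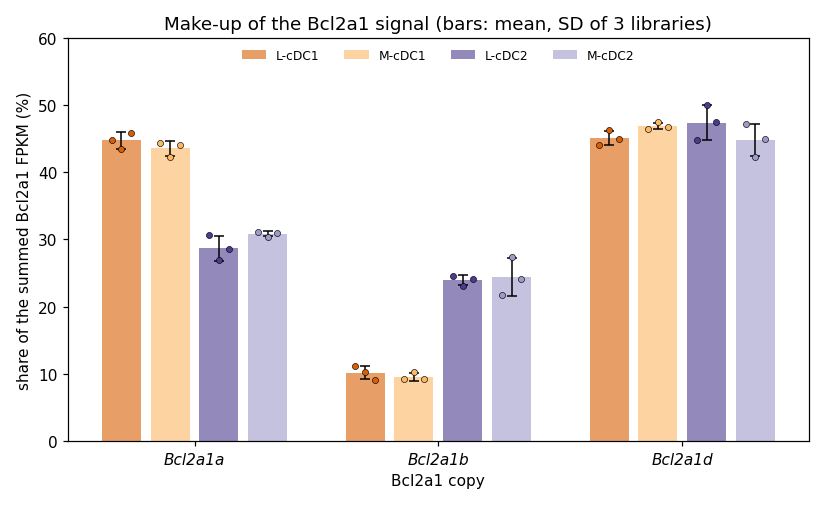
Share of the summed Bcl2a1 FPKM (%) that each copy gives, by group; bars are means, error bars the SD of 3 libraries and points the libraries. The Bcl2a1b means are 10.2% in L-cDC1 and 9.56% in M-cDC1, against 23.9% in L-cDC2 and 24.4% in M-cDC2.

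Mcl1, a labile survival protein that many blood cells need, varied most between replicates. It was 33.8, 29.2 and 27.6 FPKM in M-cDC1 and 34.7, 65.1 and 93.9 in M-cDC2. In L-cDC1 it was 35.3, 38.2 and 62.0 FPKM, and in L-cDC2 69.9, 61.6 and 50.2. The M-cDC1 libraries were below the M-cDC2 libraries, though M-cDC2 replicate 1 lay close to them, and L-cDC1 replicate 3 was within the L-cDC2 range. The mean in M-cDC2 was 2.14-fold that in M-cDC1. The log2 difference was -0.97 in M (SE 0.290, limma adjusted p = 0.0177) and -0.45 in L (adjusted p = 0.240). In M the call was lost in 7 of 13 alternatives, including median-of-ratios scaling (adjusted p = 0.0544) and leaving out M-cDC1 replicate 2 or 3 or M-cDC2 replicate 2 or 3. Without M-cDC2 replicate 3 the difference was -0.64 (adjusted p = 0.0879).

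Bcl2l1 (encoding Bcl-xL) and Bcl2 itself did not pass the test between subsets. Bcl2l1 was 3.18, 2.62 and 2.82 FPKM in M-cDC1 and 4.06, 2.72 and 3.39 in M-cDC2. In L-cDC1 it was 5.11, 3.33 and 4.57 FPKM, and in L-cDC2 3.95, 6.13 and 3.98. The groups overlapped in both pairs, and the difference of -0.17 in M (limma adjusted p = 0.542) turned to 0.13 after quantile normalization, while that of -0.08 in L (adjusted p = 0.766) turned to 0.08 and 0.19 under the 2 scalings. Bcl2 ranged from 0.746 to 1.64 FPKM over all 12 libraries, which is 150 to 312 reads. Its difference was -0.06 in M (adjusted p = 0.852), turning to 0.04 and 0.23 under the scalings, and 0.10 in L (adjusted p = 0.708).

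The effector Bax, which forms pores in the mitochondrial membrane, was among the steadier members. It was 66.9, 68.4 and 82.9 FPKM in M-cDC1 and 70.5, 50.6 and 60.4 in M-cDC2. In L-cDC1 it was 68.6, 78.4 and 74.9 FPKM, and in L-cDC2 56.0, 62.2 and 62.3. The L libraries did not overlap and the M libraries did. The difference was 0.29 in L (SE 0.127, limma adjusted p = 0.0822) and 0.27 in M (adjusted p = 0.113), and neither passed. Median-of-ratios scaling brought both past the threshold, at 0.49 (adjusted p = 0.00845) in L and 0.47 (adjusted p = 0.0115) in M. Bax shares 192 of its 1576 exon bases with Gm45808 on the same strand, a gene that stayed at 0 FPKM. How reads on these bases were counted is not given.

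Bak1, the other effector, was scarce in all groups. It was 1.07, 1.23 and 0.946 FPKM in M-cDC1 and at most 0.821 FPKM in the other 9 libraries, from 19 to 58 reads per library over all 12. Only 2 libraries reached 1 FPKM, so it was not among the genes tested. Fitted without the filter on low values, M-cDC1 minus M-cDC2 was 0.37 (limma adjusted p = 0.184) and L-cDC1 minus M-cDC1 was -0.38 (adjusted p = 0.744). It shares 437 of its 2407 exon bases with Ggnbp1 and 177 with Gm50253 on the opposite strand, and the library kits do not mark strand. Both of those genes stayed under 0.4 FPKM.

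The BH3-only members went in opposite directions between the M subsets. Bcl2l11 was 3.60, 5.67 and 5.12 FPKM in M-cDC1 and 3.69, 2.64 and 2.49 in M-cDC2. In L-cDC1 it was 5.81, 4.71 and 5.05 FPKM, and in L-cDC2 2.82, 3.66 and 3.79. The L libraries did not overlap, whereas M-cDC1 replicate 1 lay below M-cDC2 replicate 1. The difference was 0.55 in M (SE 0.188, limma adjusted p = 0.0330) and 0.49 in L (adjusted p = 0.0542). The M call was lost in 6 of 13 alternatives, among them those without M-cDC1 replicate 2 or 3 or M-cDC2 replicate 2 or 3 (adjusted p of 0.0955 to 0.130), while in L both scalings and limma-voom brought the difference past the threshold.

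Bmf, whose protein is held at the cytoskeleton until stress or loss of attachment frees it, stood highest in M-cDC2. It was 6.36, 4.36 and 5.72 FPKM there and 3.43, 3.48 and 3.16 in M-cDC1. In L-cDC2 it was 2.78, 3.62 and 3.01 FPKM, and in L-cDC1 2.46, 2.54 and 3.36. M-cDC2 was above all libraries of the other groups, which overlapped among themselves. The difference was -0.56 in M (SE 0.172, limma adjusted p = 0.0201) and -0.13 in L (adjusted p = 0.582). Scaling ended the M call, at -0.40 (adjusted p = 0.0921) and -0.26 (adjusted p = 0.276), as did leaving out M-cDC1 replicate 3 or M-cDC2 replicate 1 or 3, and the L difference turned to 0.02 and 0.17 under the scalings. Of the FPKM of the pair, Bcl2l11 held 65.1% ± 5.13 in L-cDC1, 58.4% ± 6.18 in M-cDC1, 52.1% ± 3.13 in L-cDC2 and 34.9% ± 4.02 in M-cDC2.

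**Figure D3:**
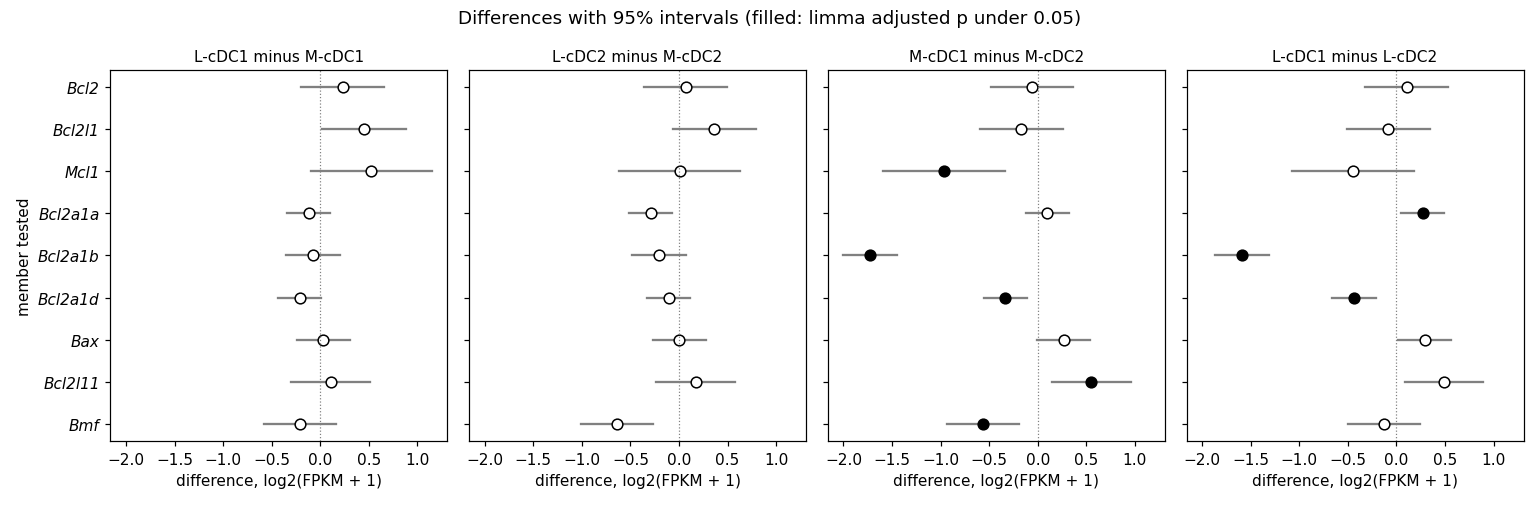
Differences of the 9 tested members on the log2(FPKM + 1) scale in the 4 comparisons; points are limma estimates, lines their 95% intervals, and filled points have an adjusted p under 0.05. In the panels of L minus M no point is filled, and Bcl2a1b lies far to the left in both panels of cDC1 minus cDC2, at -1.72 and -1.59.

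Markers of other cells also moved between the subsets, in comparisons that called 38.1% of all genes in M and 39.5% in L. Of 6 monocyte and macrophage markers tested, 2 were higher and 3 lower in M-cDC1 than in M-cDC2, and 1 was higher and 2 lower in L-cDC1 than in L-cDC2. Their summed level over 8 markers was 439 to 493 FPKM in M-cDC1, where Fcgr1 was at 0, and 1012 to 1219.6 in M-cDC2. It was 331 to 341 in L-cDC1 and 316 to 471 in L-cDC2. Most of this level was Lyz2 in each group. Of 12 B cell markers tested, 8 were lower and 1 higher in L-cDC1 than in L-cDC2, and 4 lower and 3 higher in M-cDC1 than in M-cDC2. Of 8 T and NK cell markers tested, 7 were lower in L-cDC1 than in L-cDC2 and 1 in M-cDC1 than in M-cDC2. Both erythroid and platelet markers tested were higher in cDC1 in L and in M. The summed level of the 5 listed was 21.5 to 39.0 FPKM in L-cDC1 and 15.3 to 19.0 in M-cDC1, against at most 1.55 in L-cDC2 and 4.96 in M-cDC2. Of 8 maturation markers, 3 were higher and 5 lower in M-cDC1 than in M-cDC2, and 3 higher and 3 lower in L-cDC1 than in L-cDC2. The part of all these markers in the members' differences was not tested.

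L was then compared with M within each subset, which sets cells of the same subset and different letter side by side. No member was called in either subset. In cDC1 the limma count was 0 of 9 tested, beside 0.394% of all genes, with 0 called by limma-voom. At an unadjusted p under 0.05 there was 1 member (Bcl2l1), beside 10.3% of all genes. In cDC2 it was 0 of 9, beside 1.83% of all genes, with 0 called by limma-voom. At an unadjusted p under 0.05 there were 2 members (Bmf and Bcl2a1a), beside 10.2% of all genes. Among the 9 tested, libraries did not overlap for 2 members in cDC1, both higher in L, beside 13.9% of genes. In cDC2 they did not overlap for 2, both lower in L, beside 16.9%. Bak1, outside the genes tested, was also apart in cDC1, and lower in L-cDC1 (at most 0.821 FPKM) than in M-cDC1 (at least 0.946).

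The tested members with no overlap in cDC1 were survival members. Bcl2l1 was higher in each L-cDC1 library (at least 3.33 FPKM) than in each M-cDC1 library (at most 3.18 FPKM), with means of 4.34 ± 0.910 and 2.88 ± 0.285 FPKM. Its difference was 0.45 (95% interval 0.02 to 0.88, limma adjusted p = 0.462). Mcl1 stood at 45.2 ± 14.7 FPKM in L-cDC1 against 30.2 ± 3.23 in M-cDC1, a difference of 0.53 (95% interval -0.10 to 1.15, adjusted p = 0.583) that fell to 0.28 without L-cDC1 replicate 3. In cDC2 neither was apart, and Mcl1 differed by 0.01 (95% interval -0.62 to 0.63), which turned to -0.03 after median-of-ratios scaling. The 8 maturation markers, of which 1 was called higher and none was at 0, summed to 365 to 391 FPKM in L-cDC1 and 304 to 336 in M-cDC1, and their part in these values was not tested.

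In cDC2, Bmf had the smallest p of the members. Its mean was 3.14 ± 0.432 FPKM in L-cDC2 and 5.48 ± 1.02 in M-cDC2, a difference of -0.64 (SE 0.172, 95% interval -1.01 to -0.27, limma adjusted p = 0.0989). Over the alternatives its adjusted p ran from 0.0599 to 0.293. Bcl2a1a stood at 155 ± 18.2 FPKM in L-cDC2 and 189 ± 11.5 in M-cDC2, a difference of -0.29 (95% interval -0.51 to -0.07, adjusted p = 0.263). Of 6 monocyte and macrophage markers tested 3 were lower in L-cDC2. The 8 listed summed to 316 to 471 FPKM in L-cDC2 against 1012 to 1219.6 in M-cDC2. Most of this was Lyz2, at a mean of 252 FPKM against 932, while Ly6c2 had the higher mean in L-cDC2 (1.92 against 0.945). The part of these markers in the Bmf and Bcl2a1a values was not tested.

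The other differences between L and M were not called either. Bcl2l1 differed by 0.36 in cDC2 (95% interval -0.07 to 0.79), and Bcl2a1d by -0.21 in cDC1 (-0.44 to 0.01) and -0.11 in cDC2 (-0.33 to 0.11). Bmf differed by -0.21 in cDC1 (-0.58 to 0.16), and Bcl2a1a by -0.12 (-0.34 to 0.10). Bak1, outside the genes tested, differed by -0.38 in cDC1 and -0.04 in cDC2 in the fit without the filter. Bax differed by 0.03 in cDC1 (95% interval -0.24 to 0.30) and by 0.00373 in cDC2 (-0.27 to 0.28), and both signs turned under median-of-ratios scaling. Bcl2l11 differed by 0.11 (-0.30 to 0.51) in cDC1 and 0.17 (-0.23 to 0.58) in cDC2, and Bcl2 by 0.23 (-0.19 to 0.65) and 0.07 (-0.36 to 0.49). Bcl2a1b differed by -0.07 (-0.35 to 0.21) and -0.21 (-0.49 to 0.07). The summed Bcl2a1 signal differed by -0.16 in cDC1 (limma adjusted p = 0.624) and by -0.19 in cDC2 (adjusted p = 0.535). These intervals allow differences of a size that 3 libraries a group could not settle, and a p above the threshold does not show that L and M are alike.

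Markers of lymphocytes were higher in the L libraries. The 14 B cell markers summed to 624 to 997 FPKM in L-cDC1 and 930 to 3400 in L-cDC2, against 343 to 386 in M-cDC1 and 357 to 385 in M-cDC2. Of the 12 tested, 7 were higher in L-cDC1 and 10 in L-cDC2. Most of the M level was Ighm, at a mean of 313 FPKM in M-cDC1 against 322 in M-cDC2, while Pax5 was at 0 in all M libraries and Iglc2 in those of M-cDC1. The 11 T and NK cell markers summed to 11.8 to 20.5 FPKM in L-cDC1, 41.4 to 110 in L-cDC2, 0.474 to 1.103 in M-cDC1 and 2.07 to 2.48 in M-cDC2. Their part in the members' L minus M values was not tested.

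Whether L and M differ by another amount in cDC1 than in cDC2 was asked by the interaction, which subtracts the L minus M difference of cDC2 from that of cDC1. It called 0 of 9 members with limma, beside 0.298% of all genes, with 0 called by limma-voom and 0 at an unadjusted p under 0.05, beside 8.53% of all genes. The largest values were 0.52 for Mcl1 (SE 0.410, adjusted p = 0.808) and 0.43 for Bmf (SE 0.244, adjusted p = 0.677). The Mcl1 value moved with single libraries and was 0.20 without M-cDC2 replicate 3, 0.27 without L-cDC1 replicate 3 and 0.90 without M-cDC2 replicate 1, and in the first 2 of these Bmf was larger (0.40 and 0.33).

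Outside the 10 members, 63 genes of the apoptosis machinery were listed by role, of which 54 passed the filter and were tested. In the L minus M comparisons none was called by limma or by limma-voom: 0 of 54 in cDC1, with 4 at an unadjusted p under 0.05 beside 10.3% of all genes, and 0 of 54 in cDC2, with 5 beside 10.2%. The interaction called 0 of 54, with 2 at an unadjusted p under 0.05 beside 8.53% of all genes. None of these shares exceeds the background, and whether they fall short of it was not tested. Between subsets, 10 were higher and 14 lower in M-cDC1 than in M-cDC2 (44.4% called, beside 38.1% of all genes), and 11 were higher and 16 lower in L-cDC1 than in L-cDC2 (50%, beside 39.5%). Of these, 9 were higher in both and 10 lower in both, which is 79.2% of the genes called in M and 70.4% of those called in L, and 0 went in opposite directions. Over all genes tested the shares were 74.7% of the 4736 called in M and 72.0% of the 4913 called in L, with 5 in opposite directions, so the apoptosis genes were near the background here too. Their median was -0.19 in M and -0.15 in L, near that of all genes.

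Among the other effectors and BH3-only members, 2 were higher and 2 lower in cDC1 out of 6 tested, in M and in L. Of all genes tested, 38.1% were called in M and 39.5% in L. Bid, the BH3-only protein that caspase-8 cleaves, stood at 46.1 ± 2.39 FPKM in M-cDC1 against 23.4 ± 1.67 in M-cDC2, a difference of 0.95 (limma adjusted p = 3.56e-06), and of 1.11 in L. Pmaip1, which encodes Noxa, the BH3-only partner of Mcl1 and A1, was lower in cDC1. It stood at 91.0 ± 19.1 FPKM in M-cDC1 against 195 ± 11.3 in M-cDC2, and at 93.6 ± 13.0 in L-cDC1 and 249 ± 26.0 in L-cDC2, differences of -1.12 (adjusted p = 4.77e-05) and -1.41 (adjusted p = 5.16e-06). Both Bid and Pmaip1 kept these calls in 13 of 13 alternatives. Bad, which binds Bcl2 and Bcl-xL, was higher in cDC1, at 0.65 in M and 0.70 in L. Its calls were lost without M-cDC1 replicate 1 or 2 or M-cDC2 replicate 1, and in L without L-cDC1 replicate 3 or L-cDC2 replicate 2 (adjusted p of 0.0517 to 0.0786). Bnip3l, known for clearance of mitochondria, was lower, at -0.39 in M and -0.42 in L. Both scalings ended these calls (adjusted p of 0.0853 to 0.292), as did leaving out M-cDC1 replicate 1 or 3, M-cDC2 replicate 2 or 3, L-cDC1 replicate 2 or L-cDC2 replicate 2 or 3. Of the genes listed as survival members outside the 10, only the A1 copy Bcl2a1c was tested. It was at most 2.39 FPKM and was not called.

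Among 4 atypical members tested, Bcl2l14 differed most. Its level was 26.1 ± 1.82 FPKM in M-cDC1 against 2.28 ± 0.909 in M-cDC2, a difference of 3.08 (SE 0.193, limma adjusted p = 2.28e-08), and of 2.69 in L. Bcl2l15 was lower in cDC1 at both letters and at most 1.31 FPKM in the group means, and Bcl2l12 was lower in L-cDC1 at -0.74. Quantile normalization ended the Bcl2l15 call in L (adjusted p = 0.0938). Of 10 genes of the mitochondrial pathway tested, 2 were higher and 2 lower in M-cDC1, beside 38.1% of all genes called. In L-cDC1 2 were higher and 1 lower, beside 39.5%. Cycs, which encodes cytochrome c, was higher at 1.16 in M (79.3 ± 17.5 against 34.4 ± 0.441 FPKM, adjusted p = 2.44e-05) and 0.98 in L. Vdac2, an outer membrane channel that binds Bak, was higher at 0.52 in M and 0.36 in L, where it lost its call without L-cDC2 replicate 2 (adjusted p = 0.0557). Htra2, a mitochondrial protease, was lower at -0.59 in both. Ppif, which encodes cyclophilin D, was lower in M at -0.62 (adjusted p = 0.0493), and lost that call in 10 of 13 alternatives, among them those without any 1 of M-cDC1 replicates 1 to 3 or M-cDC2 replicate 1 or 2.

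Caspases were called in both directions. All 8 tested were called in L, 4 higher and 4 lower in cDC1, beside 39.5% of all genes. In M 5 of 8 were called, 2 higher and 3 lower, beside 38.1% of all genes. Casp6, an executioner caspase, stood at 38.2 ± 2.23 FPKM in M-cDC1 against 9.83 ± 0.662 in M-cDC2, a difference of 1.86 (limma adjusted p = 1.67e-08), and of 1.98 in L. Casp1, the inflammasome caspase, was lower at -1.63 in M (8.26 ± 0.554 against 27.8 ± 3.57 FPKM, adjusted p = 9.94e-06) and -2.13 in L. Casp4, the sensor of cytosolic lipopolysaccharide known in the mouse as caspase-11, was lower in L at -1.34. Casp8, the initiator at death receptors, was lower at -0.54 in M and -0.53 in L, and lost both calls under median-of-ratios scaling (adjusted p = 0.0666 and 0.0719).

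Of 8 inhibitors of apoptosis tested, none was higher in cDC1. In M 4 were lower (50%, beside 38.1% of all genes called), and in L 5 (62.5%, beside 39.5%). Of all genes called, 33.2% in M and 32.7% in L were higher in cDC1, so calls over all genes were also mostly lower. Birc2 (cIAP1) stood at 14.2 ± 0.816 FPKM in M-cDC1 against 35.2 ± 3.23 in M-cDC2, a difference of -1.25 (limma adjusted p = 8.38e-07), and of -1.12 in L. Cflar, the FLIP protein that blocks caspase-8, was lower at -1.08 in M and -0.90 in L, and Birc5 (survivin), which also serves in cell division, at -0.66 and -1.27. These 3 kept their calls in 13 of 13 alternatives. Birc3 (cIAP2) was lower in M at -0.44, a call that median-of-ratios scaling ended (adjusted p = 0.117). Naip2, a sensor protein of the inflammasome, was lower in L at -0.87, a call lost after quantile normalization (adjusted p = 0.0792) and without L-cDC2 replicate 2 (0.0508).

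Of 6 death receptor genes and adaptors tested, 2 were higher and none lower in each comparison, beside 38.1% of all genes called in M and 39.5% in L. Ripk3, the kinase of necroptosis, was higher at 0.99 in M (36.5 ± 1.80 against 17.9 ± 1.83 FPKM, limma adjusted p = 2.80e-05) and 1.14 in L. The death receptor Fas was higher at 1.11 in M (7.23 ± 0.471 against 2.89 ± 0.963 FPKM, adjusted p = 0.0186), a call lost without M-cDC1 replicate 2 or M-cDC2 replicate 2 (adjusted p = 0.0545 and 0.0814). Of 11 regulators of the family, 1 was higher and 2 lower in M, and 1 was lower in L, beside the same shares of all genes. Foxo3, a transcription factor known to drive Bcl2l11, was lower in M-cDC1 at -0.84 (adjusted p = 0.00685). Dynll2, the dynein light chain that tethers Bmf, was higher there at 0.80 (adjusted p = 0.0297), a call lost without M-cDC1 replicate 2 or 3 or M-cDC2 replicate 1 or 3. Tmbim6 (Bax inhibitor 1) was lower in L-cDC1 at -0.28 (adjusted p = 0.0355), and lost that call under median-of-ratios scaling (-0.08, adjusted p = 0.589) and without any 1 of L-cDC1 replicates 1 or 2 or L-cDC2 replicates 1 to 3.

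**Figure D4:**
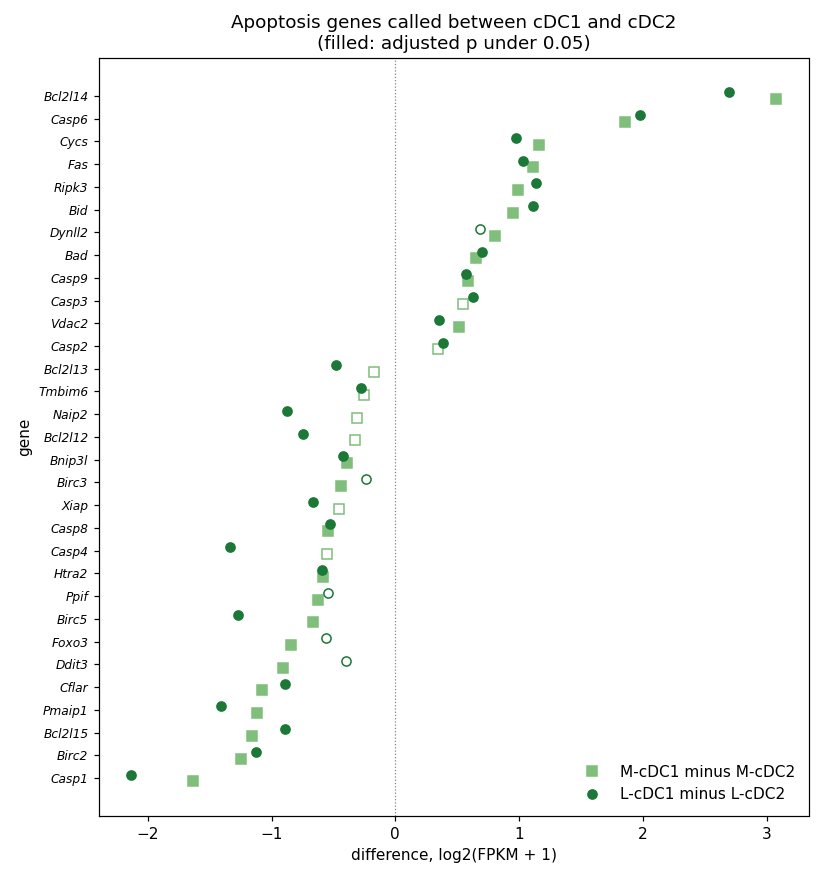
Differences cDC1 minus cDC2 on the log2(FPKM + 1) scale for apoptosis genes called in M (squares) or L (circles); filled symbols have a limma adjusted p under 0.05. Bcl2l14 and Casp6 lie farthest to the right (3.08 and 1.86 in M), Casp1 farthest to the left (-1.63 in M and -2.13 in L), and no gene has filled symbols on both sides of 0.

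The genes whose pattern over the 12 libraries was most like a member's were looked up among 6395 genes with a mean of at least 5 FPKM, by Pearson's r of log2(FPKM + 1). The libraries share their subset, depth and sort, so r is given as a description. For Bcl2a1b these were Lair1, an inhibitory receptor (r = 0.992), and Rnd3 (r = 0.992), which both had higher means in cDC2. For Mcl1 they were Ankrd13a (r = 0.978) and Mknk2 (r = 0.969), and for Bcl2l11 Nup93 (r = 0.924) and Cd200 (r = 0.917). For Bmf they were Il13ra1 (r = 0.853), which also had its highest mean in M-cDC2 (30.3 FPKM, against 16.9 to 20.5 in the other groups), and Med18 (r = 0.841).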

How the data were processed

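The deposited table holds FPKM of 12 libraries, which the authors made from read counts, gene length and library totals, per the file headers and the table's gene length column. Per the labels' protocols, RNA was extracted with a column kit and made into libraries with SMART-Seq HT and Nextera XT kits, which do not mark strand. Tools in the submitters' processing notes, listed without roles, are STAR 2.7.9a, featureCounts 2.0.1, DESeq2 1.20.0, cutadapt 3.7, Trimmomatic 0.39 and Trim Galore 0.6.7; the build listed is the human GRCh38, although the symbols are those of the mouse. FPKM times length gave whole reads for 100% of values within 0.01 read, and these reads were used for limma-voom as an alternative.

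The 12434 genes that reached 1 FPKM in 3 or more of the 12 libraries were tested with limma 3.58.1 in R 4.3.3 on log2(FPKM + 1). The model had 1 mean per group and 8 residual degrees of freedom, with the trend of variance on intensity. P-values were adjusted by Benjamini-Hochberg over all genes tested in each contrast, at a threshold of 0.05. The fold of a low gene is understated on this scale. The fit was tested on simulated data.

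Members and gene lists were chosen with earlier results of these data known. All 10 members are named. Of the apoptosis lists, genes are named that were called without overlap between libraries, at most 4 per list and contrast by p, and of genes like a member the 2 with the largest r, for the 4 members with the widest range. Of the genes this rule selects, 1 is not reported or plotted here, though list counts include it. Alternatives were a pseudocount of 0.1, no filter, median-of-ratios scaling, quantile normalization, the replicate number as a block, only the groups compared, limma-voom, summed Bcl2a1 copies and leaving out each library. PCR duplicates were not assessed.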

Additional observations from a re-analysis of the deposited data

How the results depend on the processing

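Bcl2a1b kept its direction and its call in 14 of 14 alternatives in M and in L, counting the summed copies, which are another quantity. Over all members, 558 values kept direction and side of the threshold, 34 lost a call, 9 gained one and 44 changed sign. In this tally the summed value is counted for each of the 3 Bcl2a1 copies. In M-cDC1 minus M-cDC2 the members called went from 5 to 2 without the filter (where more genes are tested), to 3 in the fit of only the groups compared, and to between 1 and 4 when a library was left out, with 1 without M-cDC1 replicate 3 or M-cDC2 replicate 3 and 3 without M-cDC1 replicate 2 or M-cDC2 replicate 2. In L-cDC1 minus L-cDC2 the 3 called are the Bcl2a1 copies themselves, so summing them left 1 called value by construction. No member was called in L minus M or in the interaction under any alternative run. Of the apoptosis lists in L-cDC2 minus M-cDC2, 0 to 1 gene was called when a library was left out, the 1 being Bcl2l14 (0.83, limma adjusted p = 0.0460) without M-cDC2 replicate 3. The cause of these changes was not tested unless stated.

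All genes called in L-cDC1 minus M-cDC1 went from 49 to 80 with a pseudocount of 0.1, 14 without the filter, 17 with only the groups compared, and 24 to 102 with a library left out. In L-cDC2 minus M-cDC2 they went from 227 to 137 with only the groups compared and 146 to 219 with a library left out. In the interaction they went from 37 to 21 with a pseudocount of 0.1, 10 with limma-voom, and 10 to 38 with a library left out. Survival shares without the 3 Bcl2a1 copies were 37.6% in L-cDC1, 29.5% in M-cDC1, 49.5% in L-cDC2 and 48.6% in M-cDC2.

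Signs that turned belonged to small differences, except for Bcl2a1a with the copies summed (-0.40 in M-cDC1 minus M-cDC2 and -0.37 in L-cDC1 minus L-cDC2). After median-of-ratios scaling, Bax was -0.0069 in L-cDC1 minus M-cDC1 and -0.0295 in L-cDC2 minus M-cDC2, Mcl1 was -0.0254 in the latter, Bcl2 0.0446 in M-cDC1 minus M-cDC2, and Bcl2l1 0.0764 and Bmf 0.0182 in L-cDC1 minus L-cDC2. After quantile normalization, Bcl2a1a was 0.00381 in L-cDC1 minus M-cDC1, and Bax -0.0123 in L-cDC2 minus M-cDC2. In M-cDC1 minus M-cDC2 it gave 0.23 for Bcl2, 0.13 for Bcl2l1 and -0.0672 for Bcl2a1a, and in L-cDC1 minus L-cDC2 0.19 for Bcl2l1 and 0.17 for Bmf. Bcl2a1d was 0.00517 in the interaction, where the summed copies gave 0.0312. With limma-voom Bax was -0.0187 in L-cDC2 minus M-cDC2. With a library left out, L-cDC1 minus M-cDC1 ran from -0.0275 to 0.125 for Bax, -0.164 to 0.0299 for Bcl2a1b and -0.0503 to 0.217 for Bcl2l11. L-cDC2 minus M-cDC2 ran from -0.117 to 0.119 for Bax and -0.376 to 0.330 for Mcl1. Bcl2 ran from -0.179 to 0.0334 in M-cDC1 minus M-cDC2, and Bcl2l1 from -0.190 to 0.0893 in L-cDC1 minus L-cDC2. In the interaction the ranges were -0.0905 to 0.145 for Bax, -0.0230 to 0.260 for Bcl2l1 and -0.222 to 0.0457 for Bcl2l11.

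Same-numbered libraries of 2 groups correlated in their deviations from the group means by -0.00171 to 0.156, not above 0.1 in every pair. They correlated best with their own number in 9 of 12 cases, so whether the numbers pair libraries was not settled. The main fit did not take them as pairs, and the block was run as an alternative. With the replicate number as a replicate block, 5 members were called in M-cDC1 minus M-cDC2 and 2 in L-cDC1 minus L-cDC2, where Bcl2a1a lost its call (0.27, limma adjusted p = 0.0565), and all genes called in the interaction fell from 37 to 25. Depth limits Bak1 most, with 19 to 58 reads.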
